A study of Mus musculus with 2 samples.

Results

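Glial cells made up a small minority of cultured adipose progenitors from newborn mice, and 154 of them were found among 11996 cells with at least 1000 detected genes. A cell was taken as glial if it held at least 2 unique molecular identifiers (UMIs, each marking 1 captured RNA molecule) summed over Sox10 and Foxd3. The white culture held 62 such cells of 5103 (1.21%, Clopper-Pearson 95% interval 0.933 to 1.55%). The brown culture held 92 of 6893 (1.33%, 1.08 to 1.63%). The intervals of the 2 shares overlap.

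The cells came from C57/BL6J pups of both sexes at P0. White fat was subcutaneous and brown fat interscapular. Tissue of each depot was pooled and digested with collagenase for 35 min (white) or 50 min (brown). The cells were then plated, washed, and grown without differentiation stimulus until confluent in 4 days. Live cells were run on the 10x Genomics 3ʹ v3.1 platform with no sort, as 1 library of 5261 cells and 144451047 UMIs (white) and 1 of 7009 cells and 205551320 UMIs (brown). The cultures had no genetic change and no treatment, so the groups are white glia, brown glia and the other cells of each culture, which are mostly adipose precursors. With 1 library per depot no value has a replicate, depot cannot be told apart from pool, digestion time or library, and every interval covers counting error only.

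Peripheral glia arise from the neural crest and accompany nerves into almost every tissue, adipose depots included. Their precursors depend on the transcription factor Sox10 and on neuregulin signals from axons received by the ErbB3 receptor. Schwann cell precursors then mature into immature Schwann cells, which become either myelinating cells that wrap large axons or non-myelinating cells that hold small ones, and after nerve injury or loss of axon contact Schwann cells turn to a repair state that makes growth factors.

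The rule used Sox10 (ENSMUSG00000033006, chr15:79154908-79165240, minus strand), the master regulator of neural crest glia, and Foxd3 (ENSMUSG00000067261, chr4:99656299-99658622, plus strand), a forkhead factor of neural crest and glial precursors. Positions are those of GENCODE M21 on GRCm38. White glia held 439 UMIs of Sox10 and 483 of Foxd3, and brown glia 607 and 681. The other white cells, with a median of 26620 UMIs per cell against 23408.5 in white glia, held 2 and 6. The other brown cells, with a median of 26672 against 19585, held 23 and 6. Both genes were found together in 58 of 62 white and 89 of 92 brown glia. The cells were chosen by these UMI counts, which are given as a description with no test.

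Cells on the 2 sides of the threshold differed in the other glial genes. Of the other cells, 8 white and 29 brown held 1 UMI of either gene, just outside the rule, and all of them had 0 UMIs of Cdh19, Ngfr and Erbb3. Just inside it, at 2 or 3 UMIs, were 5 white and 2 brown glia, with 0 to 18 and 16 to 18 UMIs of Cdh19. Among the 158 white and 116 brown cells with fewer than 1000 genes, 0 met the rule.

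The label of the cells was checked against the markers that the rule left out. Cdh19 (ENSMUSG00000047216, chr1:110888326-110977584, minus strand), a cadherin of Schwann cell precursors, reached 1330.3 CPM (the gene's UMIs per 1000000 UMIs of the summed cells) in white glia and 708 in brown glia. It stood at 0.239 and 0.182 CPM in the other cells. Ngfr (ENSMUSG00000000120, chr11:95568818-95587735, minus strand), the low-affinity neurotrophin receptor, reached 438 and 365 CPM against 0.968 and 0.192. Cdh19 was found in 98.4% of white and 97.8% of brown glia, and in 0.635% and 0.515% of the other cells. With each cell thinned to 5000 UMIs these shares were 95.2% and 84.8% against 0.142% and 0.0886%. Cdh19 ran from 0 to 3434 CPM per cell in white glia with a median of 1114, and from 0 to 3209 with a median of 611 in brown glia. The markers that the rule left out thus lay in the cells that it chose, though at levels that varied widely from cell to cell.

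The genes that stood out in glia of both cultures included a pair of noncoding genes beside the rule genes. By the ratio to the other cells, in the culture where it was smaller, the first 15 among genes of at least 50 CPM in both glial sums were Foxd3, Cdh19, Sox2, Gm10863, Sox10, Fgf5, Gm12688, Slitrk6, Zfp536, Kcna1, Luzp2, Ttyh1, Moxd1, Reln and Csmd1. Gm10863 (chr15:79166041-79227524, plus strand) starts 801 bases from the start of Sox10, on the other strand. It reached 205 CPM in white and 123 CPM in brown glia. Gm12688 (chr4:99653607-99654983, minus strand) starts 1316 bases from the start of Foxd3, also on the other strand, and reached 102 and 114 CPM. Neither overlaps its neighbour, and in the other cells both stayed at or below 0.064 CPM.

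Sox proteins bind short AT-rich sites, and the letters ACAAAG and ACAATG, which cannot overlap each other on 1 strand, were searched on both strands of the RefSeq windows from 250 bases before to 50 after each gene start (GRCm38.p6). Of these 15 genes and Ngfr, 11 had a window and 3 held a match, against 28.6% of all 32851 windows. The 250 bases before the start of these 3 are shown because each gene was high in glia of both cultures and near 0 in the other cells. Capitals mark the match.

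Sox2, chr3:34649745-34649994, plus strand: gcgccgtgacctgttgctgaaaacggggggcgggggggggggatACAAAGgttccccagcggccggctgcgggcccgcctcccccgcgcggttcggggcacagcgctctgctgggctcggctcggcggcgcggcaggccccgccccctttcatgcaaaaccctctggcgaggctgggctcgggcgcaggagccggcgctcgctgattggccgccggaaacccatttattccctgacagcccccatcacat
Gm10863, chr15:79165816-79166065, plus strand: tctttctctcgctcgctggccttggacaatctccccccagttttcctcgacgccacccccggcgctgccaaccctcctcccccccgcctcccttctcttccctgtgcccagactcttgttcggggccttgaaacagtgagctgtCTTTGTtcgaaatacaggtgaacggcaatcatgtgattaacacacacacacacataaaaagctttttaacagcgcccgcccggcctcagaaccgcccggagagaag
Fgf5, chr5:98253934-98254183, plus strand: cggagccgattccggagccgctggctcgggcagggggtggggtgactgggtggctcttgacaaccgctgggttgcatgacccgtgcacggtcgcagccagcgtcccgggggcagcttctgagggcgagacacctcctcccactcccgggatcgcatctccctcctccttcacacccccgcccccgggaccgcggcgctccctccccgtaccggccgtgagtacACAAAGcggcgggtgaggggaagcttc

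The match is nearest to the start in Fgf5, 27 bases before it, and lies 106 bases before the start of Gm10863, where it reads on the minus strand. It is a description of letters and not of a bound site.

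**Figure D1:**
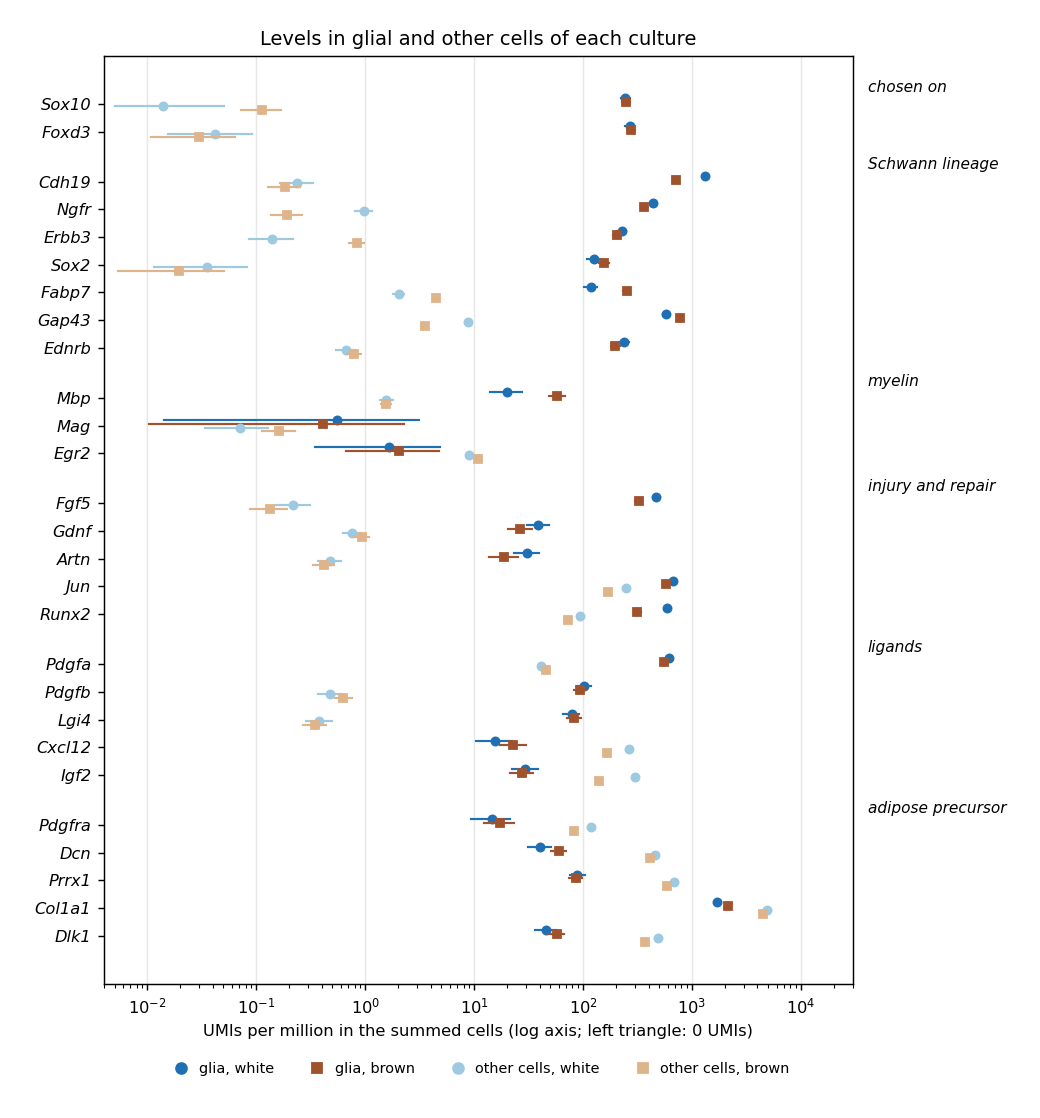
CPM (UMIs per 1000000 UMIs) of 27 genes in the summed glial and other cells of each culture (log axis, 95% Poisson intervals, counting error only). Schwann lineage genes lie orders of magnitude to the right in glia, the myelin gene Mag near 0 in all 4 sums, and precursor genes to the left.

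Compared with the other cells of their culture, many genes differed in glia. Of 4507 genes compared in white cells (at least 50 CPM in either sum and 10 UMIs over both), 654 were at least 2-fold higher in glia (14.5%) and 498 at least 2-fold lower (11%), or 25.6% in all. In brown cells the numbers were 546 of 4213 (13%) and 402 (9.54%), or 22.5% in all. The median log2 ratio over all compared genes was 0.15 and 0.12. Below, higher and lower mean past 2-fold among the genes so compared. These shares stand beside the counts of the lists, which are descriptions, since the cells were chosen by genes of the same cells.

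Most of the compared genes of the Schwann cell lineage were higher in glia. Of 20 listed genes, 13 were compared in white cells and 12 were at least 2-fold higher, and 14 of 15 in brown cells. The remaining 7 in white and 5 in brown cells were under the minimum for comparison. Postn, a secreted matrix protein, was compared in both and stayed within 2-fold. Erbb3, the neuregulin receptor, stood at 226 CPM in white and 204 CPM in brown glia, and at 0.14 and 0.833 CPM in the other cells. Sox2, a factor of immature glia, stood at 126 and 157 CPM against 0.0351 and 0.0197. Both genes were separated from the other cells by more than 7 on the log2 scale in both cultures.

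Further genes of that list covered the stages from crest to immature Schwann cell. Ednrb, the endothelin receptor of crest cells and glia, stood at 238 CPM in white and 199 CPM in brown glia, and Gap43, a growth-associated membrane protein, at 577 and 774 CPM. Fabp7, the brain fatty acid binding protein of glial precursors, stood at 118 and 251 CPM. Dhh, the hedgehog ligand by which Schwann cells signal to the perineurium, stood at 18.4 and 21.3 CPM, under the minimum for comparison. Mal, a proteolipid of membrane sorting, stood at 48.4 and 50.3 CPM in glia, and had 0 UMIs in the other white cells. Genes of precursors and of immature Schwann cells were thus read side by side in the sums.

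Most myelin genes were at or near 0. Of 18 genes of myelin and its onset, 6 had 0 UMIs in white and 3 in brown glia. The minimum for comparison was passed by 3 and 5, of which 2 and 4 were higher. Pmp22 was lower in white glia, and 0 were lower in brown. Mag, the myelin-associated glycoprotein, had 1 UMI in each glial sum. Gjb1 and Cldn19, junction proteins of myelinating Schwann cells, had 0 UMIs in both, where the floor of 3 UMIs corresponds to 1.67 CPM in white and 1.23 CPM in brown glia. Egr2, the factor that turns on peripheral myelin, stood at 1.67 and 2.04 CPM in glia and at 8.99 and 10.8 CPM in the other cells. Cnp, an enzyme of myelin, was among the higher genes in both cultures, at 110 CPM in white and 119 CPM in brown glia against 9.85 and 9.75, and Mbp and Mal were among them in brown.

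Genes of non-myelinating and immature Schwann cells were higher as a group, 8 of 9 compared in each culture, of 12 listed. L1cam, an adhesion molecule of axons and unmyelinated glia, stood at 121 CPM in white and 132 CPM in brown glia, against 0.154 and 0.305. Cadm4, a glial partner of axonal adhesion proteins, stood at 219 and 228 CPM against 0.772 and 0.67. Ncam1, the neural cell adhesion molecule, was lower in white glia, with 172 CPM against 393 in the other white cells. In brown culture it stood at 168 against 249 CPM, within 2-fold. Gfap, the intermediate filament of astrocytes and non-myelinating Schwann cells, had 3.34 and 5.31 CPM, from 9.68% and 14.1% of the glia.

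Most of the compared genes of repair Schwann cells were high as well. Of 12 genes 6 were compared in each culture, 5 were at least 2-fold higher and Ccl2, a chemokine, was lower. The remaining 6, Bdnf among them, were under the minimum for comparison. Bdnf was found in 38.7% of white and 19.6% of brown glia, against 27.1% and 33.1% of the other cells. With 5000 UMIs per cell its shares were 12.9% and 9.78% against 7.22% and 8.11%. Fgf5, a fibroblast growth factor, stood at 471 CPM in white and 323 CPM in brown glia, against 0.218 and 0.133, and was found in 98.4% and 97.8% of the glia. Jun, the transcription factor that governs the repair state, stood at 671 and 579 CPM against 246 and 169. Runx2, a Runt factor that injured Schwann cells make, stood at 596 and 315 CPM against 94.3 and 72.4. Gdnf and Artn, ligands of the Ret receptor complex, stood at 38.9 and 30.6 CPM in white and 26.6 and 18.8 CPM in brown glia, below the minimum for comparison, with the other cells under 1 CPM. Shh had 0 UMIs in both glial sums, and Olig1 had 0 in brown glia.

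Jun and Atf3 are also genes of the response to dissociation, and the part of dissociation in their levels was not tested. Of 14 stress and dissociation genes, 10 were compared in each culture. Jun, Atf3 and Cryab were higher in glia of both, while 4 in white and 5 in brown cells were lower, among them the early response genes Fosb and Egr1. Cryab, a small heat shock protein of muscle and glia, stood at 1251 CPM in white and 1410.3 CPM in brown glia, against 118 and 140 CPM in the other cells, and was found in every glial cell. Hspb1, another small heat shock protein, stood at 11.7 and 56.8 CPM against 92.2 and 161.

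Neural crest genes split. Ets1, Sox5 and Cdh6 were at least 2-fold higher in glia of both cultures, with Sox5, a Sox factor of crest cells, at 332 CPM in white and 208 CPM in brown glia against 34.2 and 34.9. Sox9 and Twist1, which mesenchymal cells also make, were lower in both. Sox9 stood at 14.5 and 15.5 CPM against 72.8 and 88.7, and Twist1 at 9.46 and 20.8 CPM against 114 and 106. In all, 5 of 8 compared genes were higher and 2 lower in white cells, and 3 of 7 higher and 3 lower in brown.

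Most markers of other cell types that the cultures could hold were low or at 0 in glia, with a few exceptions. Of 10 melanocyte genes, 8 in white and 7 in brown glia had 0 UMIs, among them Tyr, Dct and Mlana, enzymes and antigens of pigment cells. Of 13 neuron genes, 10 and 6 had 0 UMIs, and Tubb3, a neuronal tubulin, carried nearly all of the rest, at 176 and 154 CPM against 59.2 and 65.2. The melanocyte factor Mitf stood at 19.5 and 8.17 CPM in glia. Of 10 genes of central glia, Olig2, Mog, Mobp and Aqp4 had 0 UMIs in both glial sums, while Cspg4, a proteoglycan also of pericytes, was higher and Slc1a3, a glutamate transporter, lower than in the other cells. All 5 epithelial genes and 4 of 6 endothelial genes were at 0 in each glial sum. Of 6 myogenic genes, 5 in white and 3 in brown glia were at 0, and 8 myeloid genes summed to 199.7 and 7.76 CPM against 110.2 and 165 in the other cells, with Lyz2 the most abundant in white glia. Without 7 white and 12 brown glia described below, the myeloid sums were 2.73 and 6.59 CPM. Those glia were chosen by Ptprc and Lyz2 among other genes, so the fall of the white sum follows in part from that choice.

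The signals that glia receive were read from 23 receptor genes. In white cells 7 of 11 compared were higher and 1 lower, and in brown cells 6 of 9 higher and 0 lower. Gfra1, the coreceptor for Gdnf, stood at 383 CPM in white and 218 CPM in brown glia against 18.5 and 10.6. Adgrg6, the adhesion receptor that Schwann cells need for myelination, stood at 147 and 110 CPM against 2.2 and 3.64. Notch1, the Notch receptor, stood at 149 and 121 CPM against 22.2 and 26.1. Nrg1, the neuregulin ligand itself, was the gene lower in white glia, at 6.12 CPM against 50.5, and stood at 4.9 against 42.1 CPM in brown culture, under the minimum for comparison.

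The signals they could send differed from those of the other cells in both directions. Of 34 ligand genes, 7 of 17 compared were higher and 9 lower in white cells, and 7 of 16 higher and 7 lower in brown. The 7 higher ones were the same in both cultures, namely Lgi4, Pdgfa, Pdgfb, Fgf5, Sema3b, Sema3c and Sema3e. Pdgfa, a ligand of the Pdgfra receptor that adipose precursors carry, stood at 610 CPM in white and 559 CPM in brown glia against 41.3 and 45.7, and was found in every glial cell. Pdgfb stood at 102 and 94 CPM against 0.477 and 0.631, and Lgi4, a secreted protein of Schwann cells, at 78.5 and 83 CPM against 0.379 and 0.345. Cxcl12, Igf2, Fgf7, Csf1, Vegfa, Tgfb3 and Ccl2 were lower in glia of both cultures. Cxcl12, a chemokine of stromal cells, stood at 15.6 and 22.9 CPM against 264 and 164.

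Schwann cells rest on a basal lamina that they bind through integrins and dystroglycan. Of 21 such genes, 9 of 17 compared were higher and 2 lower in white cells, and 7 of 16 higher and 0 lower in brown. Agrn, the proteoglycan agrin, stood at 239 CPM in white and 239.9 CPM in brown glia against 5.64 and 7.55. Itga6, a laminin receptor chain, stood at 336 and 289 CPM against 10 and 13.9, and Dag1, dystroglycan, at 476 and 401 CPM against 76.8 in both. The higher genes in brown cells, Lama2, Lama4, Agrn, Dag1, Itga6, Itga7 and Itgb8, were also higher in white cells.

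Most adipose precursor genes were lower in glia than in the other cells. Of 16, Cd34 and Dpp4 had 0 UMIs in both glial sums, and all 14 compared were at least 2-fold lower in white glia, and 13 of 14 in brown, with Ly6a the exception. The most abundant of them in glia was Col1a2, a chain of collagen I, at 2068 CPM in white and 2440.2 CPM in brown glia against 5440 and 4912. Pdgfra stood at 14.5 CPM in white and 17.2 CPM in brown glia against 117 and 82.7, and Dcn, decorin, at 40.1 and 59.7 CPM against 460.0 and 413. The other genes of the rule for lower ratios, Cdh11, Slit2, Prrx1, Ebf1, Dlk1, Zfpm2, Ddr2, F3 and Sfrp2, are likewise genes of mesenchymal cells.

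**Figure D2:**
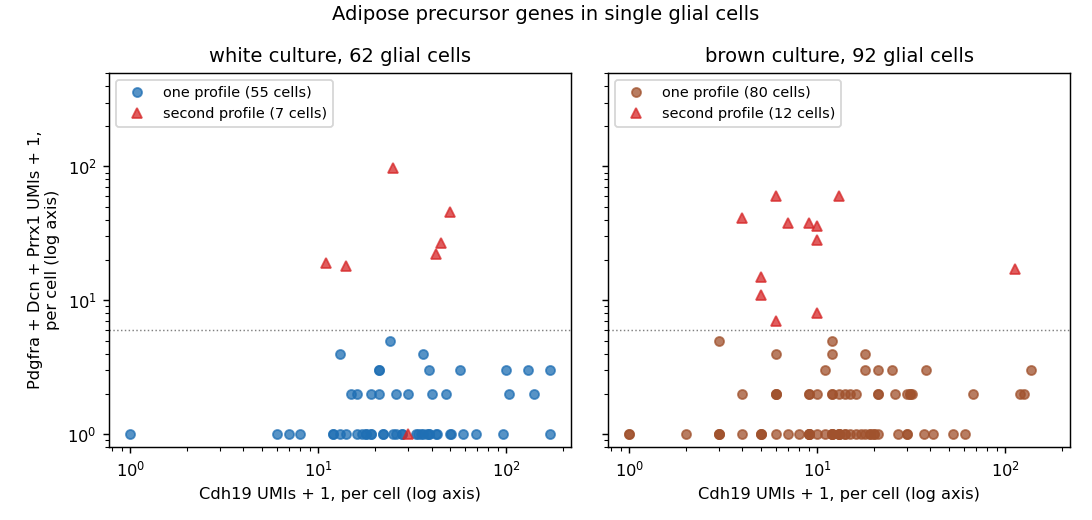
UMIs of 3 adipose precursor genes (Pdgfra, Dcn and Prrx1, summed) against those of Cdh19 in each of 62 white and 92 brown glial cells, on log axes with 1 added. The 7 white and 12 brown cells drawn as triangles carried a second profile and lie above the dotted line, except 1 white cell marked by myeloid genes.

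For Pdgfra, Dcn and Prrx1 most UMIs came from few cells. The sum of Pdgfra, Dcn and Prrx1 was 0 in 36 of 62 white and 46 of 92 brown glia, 1 to 4 in 20 and 34, and 5 or more in 6 and 12. In the other cells 96.4% and 96.9% held 5 or more, with medians of 32 and 29. A further white cell held all 6 UMIs of Ptprc, the leukocyte antigen, and 196 of the 198 of Lyz2, lysozyme. A brown cell, among the 12, held 76 of the 82 UMIs of Myh11, a smooth muscle myosin. These 7 white and 12 brown glia with a second profile had medians of 46532 and 42188 UMIs, against 21415 and 18208 in the remaining 55 and 80. Whether such a droplet held 2 cells was not tested, no doublet caller was used, and values without these cells are given beside the results they bear on most.

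Without these cells, the counts of genes at least 2-fold higher were 727 in white and 666 in brown cells. Precursor genes summed to 3641 and 3962 CPM in the remaining glia, against 4591 and 5691 in all glia and 14629 and 13398 in the other cells. Acta2, smooth muscle actin, was 382 and 1035 CPM in all glia and 54.5 and 82.9 CPM in the remaining ones, against 3525 and 4581 in the other cells. Col1a1, the other chain of collagen I, was 1705 and 2128 CPM in all glia and 1406 and 1518 CPM in the remaining ones, against 4854 and 4539 in the other cells. Dcn was 6.81 and 6.59 CPM in the remaining glia. The cells left out were chosen by Pdgfra, Dcn and Prrx1 among others. The value of Dcn follows from that choice, and the fall of the summed precursor genes follows from it in part. Col1a1 was found in 100% of white and 98.9% of brown glia.

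Cell cycle genes stood somewhat higher in glia than in the other cells of their culture. The 26 G2/M genes summed to 2839 CPM in white glia against 1798 in the other white cells, a log2 ratio of 0.66 (0.62 to 0.70), and to 2918 against 1726 in brown, 0.76 (0.72 to 0.79). The 29 S phase genes gave 0.34 (0.28 to 0.40) and 0.60 (0.56 to 0.65). Without the second-profile cells the G2/M genes gave 0.77 and 0.85, and the S phase genes 0.47 and 0.74. Single genes differed less clearly, with 2 of 20 compared G2/M genes and 2 of 12 S phase genes higher in white glia, and 1 of 18 and 1 of 14 in brown. Mki67, a nuclear protein of cycling cells, stood at 257 and 212 CPM in glia against 125 and 100.5 CPM.

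The cycle genes were also read at equal depth. With each cell thinned to 5000 UMIs, which left out 0 glia and 126 white and 31 brown other cells, Mki67 was found in 30.6% (19.6 to 43.7%) of white and 43.5% (33.2 to 54.2%) of brown glia. The shares were 23.7% and 22% in the other cells, and unthinned 45.2% and 53.3% against 36.7% and 36.8%. The median of S phase UMIs per thinned cell was 3 in white glia and 3 in the other white cells, and 5 against 3 in brown. The cycle genes were unevenly spread among glia, with a median of 2 and 4.5 UMIs of G2/M genes per thinned cell and maxima of 101 and 87, against a median of 1 in the other cells of each culture and maxima of 74 and 72. The means of G2/M UMIs were 13.2 in white and 14.7 in brown glia, against 7.59 and 7.47 in the other cells. Along the first principal component of the thinned glia, which held 4.11% of the variance in white and 3.6% in brown, cell cycle genes such as Top2a, Hmgb2 and Cdk1 led one side. The other side was led by Tnc, Pgf and Igfbp5 in white and by Pcdh9, Runx2 and Dtna in brown glia. Without the second-profile cells that side was led by Yipf4, Pgf and Marcksl1 in white and by Pcdh9, Runx2 and Mxd4 in brown glia.

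White and brown glia were then compared directly. Of 4170 genes compared, 38 were higher in white glia (0.911%) and 36 in brown glia (0.863%), or 1.77% in all, with a median log2 ratio of 0.05. Without the second-profile glia 27 were higher in white and 15 in brown glia, the mean of per-cell CPM gave 19 in brown glia, and thinning to 5000 UMIs per cell, which leaves fewer UMIs, gave 154 and 101. In the unthinned sums the other cells of the 2 cultures differed at about the same rate, with 34 of 3733 genes higher in white (0.911%) and 20 in brown (0.536%), or 1.45% in all, and after thinning 32 and 22. None of the compared genes of the non-myelinating (9), repair (6), receptor (10), ligand (10), basal lamina (16), S phase (15) and G2/M (20) lists was past 2-fold between white and brown glia. The label markers were all within 2-fold, and Cdh19 came nearest, with a log2 ratio of 0.91 (0.82 to 1.00).

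**Figure D3:**
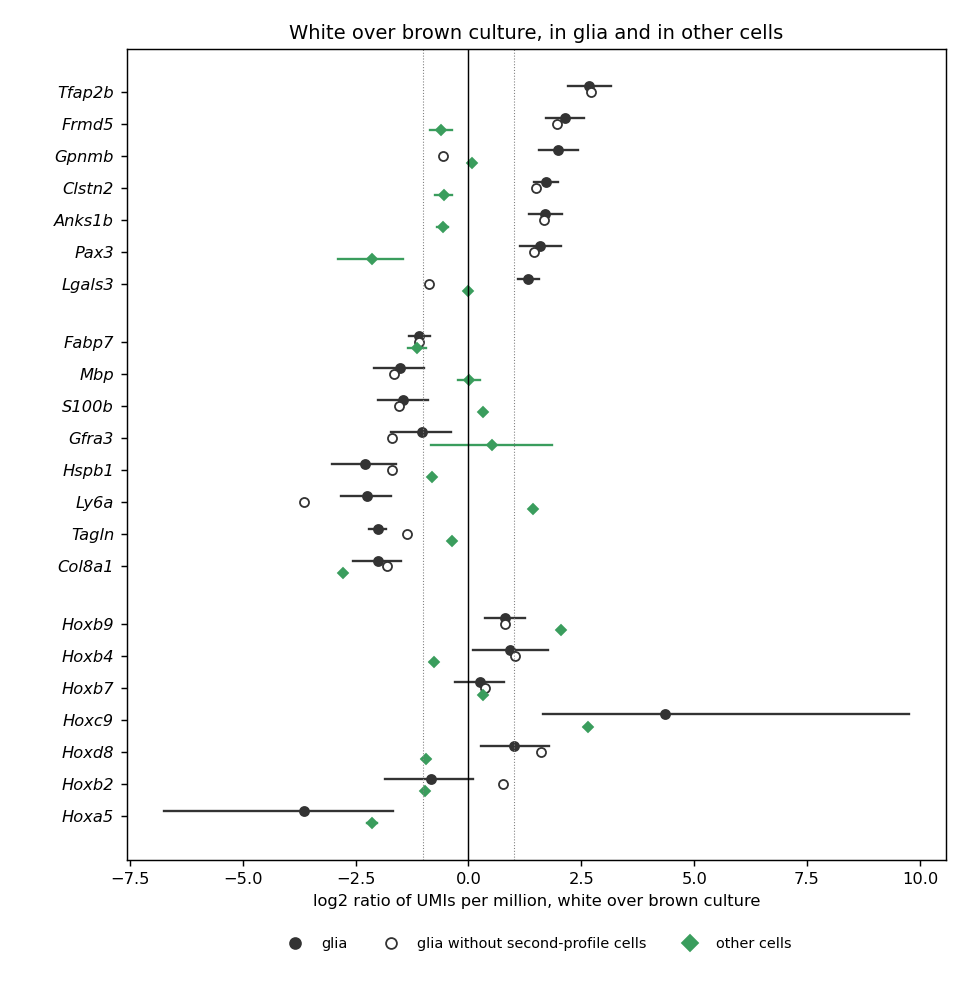
Log2 ratio of CPM, white over brown culture, for named genes in glia (filled circles, 95% counting intervals), in glia without second-profile cells (open circles) and in the other cells (diamonds). Tfap2b and Pax3 lie to the right in glia, and Gpnmb and Lgals3 cross to the left once second-profile cells are left out.

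Among genes higher in white glia, Tfap2b and Pax3 are factors of the neural crest. Tfap2b (chr1:19208914-19238576, plus strand), an AP-2 transcription factor, stood at 122 CPM in white and 19.2 CPM in brown glia, a log2 ratio of 2.67 (2.21 to 3.15), and 2.72 without the second-profile cells. It was found in 82.3% of white and 25% of brown glia, and in 0% and 0.0294% of the other cells. With 5000 UMIs per cell the glial shares were 45.2% (32.5 to 58.3%) and 10.9% (5.34 to 19.1%). Pax3 (chr1:78101267-78197134, minus strand), a paired-box factor, stood at 72.3 and 24.1 CPM, 1.58 (1.13 to 2.05), and 1.46 without those cells. In the other cells Pax3 went the opposite way, with 0.14 CPM in white and 0.616 in brown, a log2 ratio of -2.13. Per cell, Tfap2b ran from 0 to 24 UMIs with a median of 2.5 in white glia, and from 0 to 6 with a median of 0 in brown glia, so the 2 groups overlap at the low end.

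Further genes on the white side had varied roles. Frmd5, a cytoskeletal adaptor, gave 2.14 (1.73 to 2.57), Clstn2, a calsyntenin of synapses, 1.72 (1.46 to 1.99), while Anks1b, a postsynaptic scaffold protein, stood at 116 CPM in white and 35.6 CPM in brown glia. In the other cells these 3 genes gave log2 ratios of -0.60, -0.55 and -0.57. Atp8b1, a lipid flippase, gave 1.59, Dok6, an adaptor of receptor kinases, 1.39, and Sox2ot, a long RNA, 1.31. The Sox2ot gene holds Sox2 inside it on the same strand, and how reads within Sox2 were shared between them was not tested. Sox2 itself stood at 126 CPM in white and 157 CPM in brown glia. Gpnmb, a glycoprotein of macrophages and pigment cells, and Lgals3, galectin 3, gave 1.98 and 1.32 in all glia. Without the second-profile cells they gave -0.57 and -0.87, since 143 UMIs of Gpnmb and 304 of Lgals3 were in the 1 white cell with Ptprc. That cell likewise set the ratio of Lyz2, 5.75 in all glia. Without the second-profile cells 1 UMI of Lyz2 remained in white and 4 in brown glia, a ratio of -1.69 with an interval from -7.31 to 1.65, which gives no direction.

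Genes higher in brown glia included a few of the Schwann lineage and myelin lists, S100b and Fabp7 of 15 compared in the first and Mbp of 5 in the second, with 0 higher in white glia. Fabp7 stood at 118 CPM in white and 251 CPM in brown glia, a log2 ratio of -1.09 (-1.32 to -0.86), and in the other cells at 2.04 and 4.49 CPM, -1.14, which is nearly the same ratio at a far lower level. Mbp, myelin basic protein, stood at 20.0 and 57.6 CPM, -1.52 (-2.09 to -0.99), and was found in 27.4% and 47.8% of the glia. S100b, a calcium-binding protein of Schwann cells, stood at 20.0 and 54.4 CPM, -1.44 (-2.01 to -0.90). In the other cells Mbp and S100b gave 0.01 and 0.32. Pou3f1, the promyelinating POU factor, stood at 7.23 and 22.1 CPM, below the minimum for comparison. With the second-profile cells left out, Fabp7 gave -1.10, Mbp -1.65 and S100b -1.53.

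**Figure D4:**
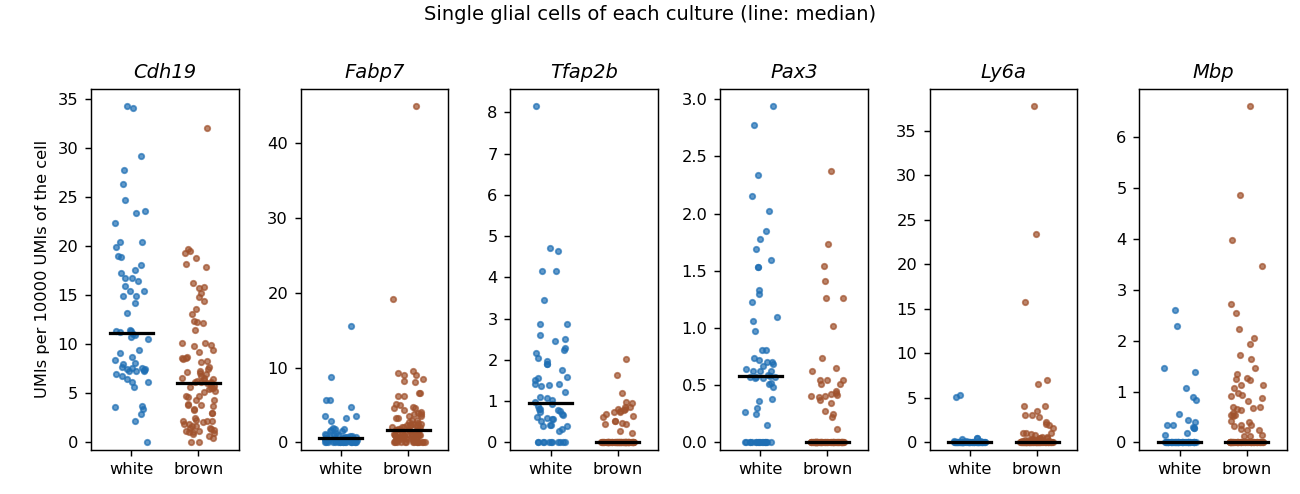
UMIs per 10000 UMIs of the cell (linear axis) for 6 genes in each of 62 white and 92 brown glial cells, with the median as a line. Cdh19 and Fabp7 are spread over most cells, Tfap2b and Pax3 have medians of 0 in brown glia, and Ly6a is high in a few brown cells.

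The 10 genes first by ratio on the brown side included several of contractile and matrix-forming cells. Among them were Hspb1, Ly6a, Igfbp4, Actg2, Tagln, Col8a1, Myl9, Thbs1 and Pcolce, with log2 ratios from -2.28 to -1.54. Without the second-profile cells the call of Hspb1 was lost, with 0 of the 7 stress and dissociation genes then compared past 2-fold. Tagln, a smooth muscle protein, stood at 157 and 633 CPM, -2.01, and gave -1.36 without the second-profile cells. Thbs1, thrombospondin 1, gave -1.57 and then -0.79. The 3 compared mural genes Acta2, Actg2 and Tagln were all higher in brown glia, yet lower in glia than in the other cells of each culture. Without the second-profile cells only Tagln was still past 2-fold of the 2 then compared, Acta2 gave -0.61, and the log2 ratio of the summed mural genes went from -1.67 to -1.07. Col8a1, a network collagen, stood at 20.6 CPM in white and 82.6 CPM in brown glia, and at 36 and 246 CPM in the other cells. In glia it was 13.6 and 47.8 CPM without the second-profile cells, a log2 ratio of -1.81.

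Ly6a, the stem cell antigen Sca-1 (chr15:74994877-74998031, minus strand), went the opposite way in glia and in the other cells. White glia held 33 UMIs (18.4 CPM) and brown glia 215 (87.9 CPM), a log2 ratio of -2.26 (-2.83 to -1.73), while the other cells stood at 94 CPM in white and 35 CPM in brown, 1.42. Summed over all glia it was lower in white glia than in the other white cells (-2.36, -2.90 to -1.87) and higher in brown glia than in the other brown cells (1.33, 1.12 to 1.52). The brown value came from 38% of the glia, of which the 2 highest cells held 49 and 39 UMIs, and the white value from 12.9%, with 19 UMIs in 1 cell. The brown call rested on the 2 highest cells. With the 2 highest glia of each culture left out, a choice made after seeing the data, brown glia stood at 52.5 CPM, within 2-fold of the other brown cells (0.59, 0.32 to 0.84), and white glia at 3.44 CPM from 6 UMIs (-4.77, -6.22 to -3.65). Without the second-profile cells Ly6a stood at 8.18 CPM in white and 102 CPM in brown glia.

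Hox genes record the position of cells along the body axis, and their clusters were read differently in glia. In white cultures the Hoxc genes summed to 326 CPM in the other cells and to 60.6 CPM in all glia, and in brown cultures to 115 and 28.2. Of 39 Hox genes, Hoxc6, Hoxc8 and Hoxc10 were at least 2-fold lower in white glia than in the other white cells, while Hoxb9, the other one compared, gave 0.10. In brown culture no Hox gene reached the minimum for comparison. The Hoxb genes summed to 151 CPM in white glia against 162 in the other cells, and to 116 against 160 in brown.

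**Figure D5:**
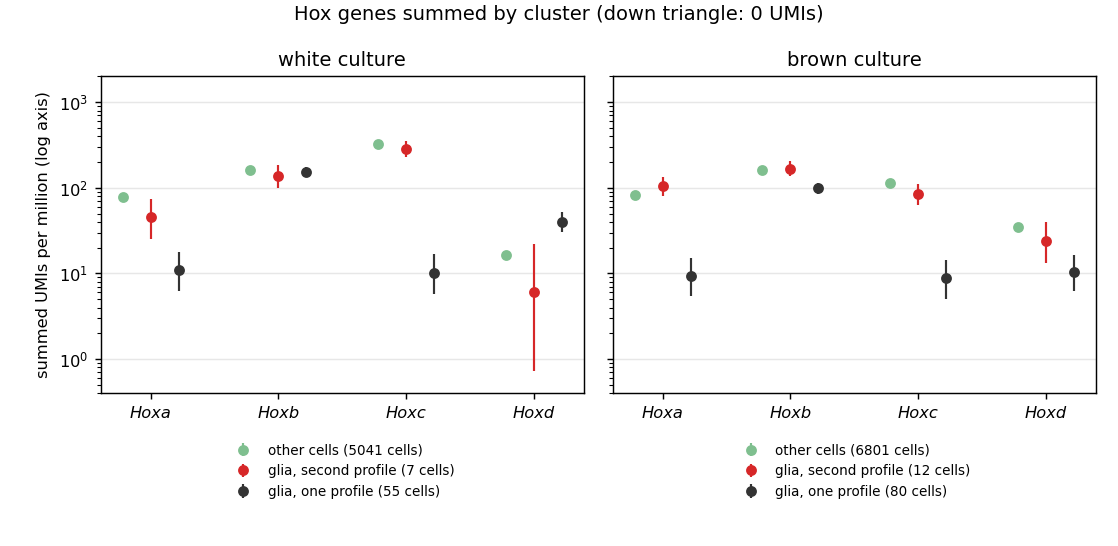
Summed CPM of the Hoxa, Hoxb, Hoxc and Hoxd genes (log axis, 95% Poisson intervals) in other cells, glia with a second profile and the remaining glia of each culture. In the remaining glia Hoxa and Hoxc lie near 10 CPM, while Hoxb lies near 100 CPM or above.

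The second-profile glia carried most of the Hoxc UMIs in both cultures and most of the Hoxa UMIs in brown (65 of 82), while in white they held 15 of 31 Hoxa UMIs. In white culture, 7 such glia held 94 of the 109 Hoxc UMIs, and the remaining 55 held 15, or 10.2 CPM (5.72 to 16.9). In brown culture 12 held 53 of 69 Hoxc UMIs and the remaining 80 held 16, or 8.79 CPM (5.02 to 14.3). The Hoxa genes stood at 10.9 and 9.34 CPM in the remaining glia against 78.8 and 82.8 in the other cells. The Hoxb genes kept 154 CPM in the remaining white and 98.3 CPM in the remaining brown glia, found in 87.3% and 58.8% of those cells. In glia without a second profile, Hoxb genes were thus read in both cultures while Hoxa and Hoxc genes were far below the other cells. The Hoxd genes stood at 40.2 CPM (30.6 to 51.9) in the remaining white and 10.4 CPM (6.28 to 16.3) in the remaining brown glia, against 16.5 and 35.0 in the other cells, so their order between cultures was opposite in the 2 kinds of cell.

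No compared Hox gene was past 2-fold between white and brown glia, and of 39 only Hoxb9 was compared. Hoxc10 had 30 UMIs in white glia, 22 of them in 1 cell, and 0 in brown glia, and in the other cells 13005 against 14 UMIs. Without the second-profile cells 1 UMI of Hoxc10 remained in white glia. Hoxb9 (chr11:96271457-96276595, plus strand) stood at 56.2 CPM in white and 32.3 CPM in brown glia, 0.80 (0.36 to 1.24), and in the other cells the ratio was 2.06. Hoxd8 (chr2:74704615-74707933, plus strand) stood at 22.3 and 11 CPM, 1.01 (0.27 to 1.77), and with 39 against 16 UMIs without the second-profile cells, whereas in the other cells it gave -0.94. Hoxd8 is below the minimum for comparison in glia. Zic1, a brown depot gene, had 0 UMIs in white and 7 in brown glia, all 7 in second-profile cells, against 26 CPM in the other brown cells.

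Other genes of body position were mostly lower in glia. Of 17 regional genes, 5 of 6 compared were lower in white glia and Pax3 was higher, and all 4 compared were lower in brown glia. Their sum was 380.0 CPM in white and 220.3 CPM in brown glia, and 298 and 138 CPM without the second-profile cells, against 1088 and 829.7 in the other cells. Tbx15, Meis1 and Meis2 were among those lower in glia of both cultures, and Shox2 among those lower in white. Meis2, a homeobox cofactor, stood at 96.3 CPM in white and 38.8 CPM in brown glia against 282 and 213, and its ratio between glia was 1.31 (0.94 to 1.69), and 1.92 without the second-profile cells, with 0.40 in the other cells.

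Pups of both sexes contributed glia. Of cells with UMIs either of Y-linked genes or of Xist, the noncoding RNA of the inactive X, and not of both, the share with Y-linked genes was 24.1% (13.5 to 37.6%) in white glia and 20.3% in the other white cells, and 9.88% (4.36 to 18.5%) in brown glia and 13.6% in the other brown cells. Each glial interval holds the share of its culture. The 2 libraries share 9 cell barcodes, of which 0 belong to glia.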

How the data were processed

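Single-cell RNA libraries of 1 white and 1 brown culture were used. Per the labels, the authors made the deposited UMI counts with Cell Ranger 7.0.1 (10x Genomics) on mm10, with its cell calls. The counts are whole and not normalized, so a few deep cells weigh more in sums. The labels give P0 and 4 days, which are used here. Membership, CPM of summed UMIs, exact Poisson and Clopper-Pearson intervals and conditional binomial intervals of log2 ratios (all 95%) were computed in Python 3.11.15 with numpy 2.4.6 and scipy 1.17.1. A sum of 0 was set to 3 UMIs for a ratio, and no ratio was given where both sums held 3 or fewer. Thinning drew 5000 UMIs per cell (seed 7). Named genes were those of fixed lists, the 15 highest and 10 lowest in glia of both cultures, and the 10 with the largest depot ratio in each direction. The members and lists were chosen with earlier results of these data known. With 1 library per depot, no test was run. Doublets were not called. Glia with a second profile held at least 5 UMIs of Pdgfra, Dcn and Prrx1, of Ptprc and Lyz2, of Myh11 or of Myod1. Alternatives changed the cell limits, the membership rule, the CPM minimum, the fold, the depth (thinning) and the summing (mean of per-cell CPM). The ratios and intervals were tested on simulated sums with counting error only. Spread from cell to cell was not simulated, so their behaviour under it was not tested. Some items are not reported here.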

Additional observations from a re-analysis of the deposited data

Results flagged for a closer look

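Ly6a stood out because its ratio of glia to other cells was past 2-fold in opposite directions in the 2 cultures. The log2 ratio was -2.36 in white and 1.33 in brown culture. Without the 2 glia highest for Ly6a in each culture, a choice made after seeing the data, it was -4.77 and 0.59, so the brown value was no longer past 2-fold. The 2 ratios come from 1 library each, and the difference between them was not tested.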

How the results depend on the processing

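The study's own cell limits keep 48 white (77.4%) and 70 brown glia (76.1%), and the shares of glia then are 1.09% and 1.14%. Under all cell and membership rules tried they ran from 1.08% to 1.22% in white and from 1.14% to 1.34% in brown culture. Counts of genes past the fold changed by over 1.5 times with the thresholds. At a minimum of 100 CPM, 416 genes were higher and 282 lower in white glia, 315 and 223 in brown glia, 22 and 14 between white and brown glia, and 18 and 10 between the other cells. At 4-fold the numbers were 319 and 240, 258 and 172, 3 and 8, and 3 and 7. Between white and brown glia, thinning to 5000 UMIs, which leaves fewer UMIs per sum, gave 154 and 101 genes, the mean of per-cell CPM gave 19 lower genes, and leaving out the second-profile glia, an alternative added after seeing the data, gave 15. The log2 ratio of the summed S and G2/M genes (main values 0.55 in white, 0.70 in brown, -0.07 between glia) was 0.73, 1.04 and -0.22 under the study's limits, 0.60, 0.80 and -0.12 without glia of at least 2 UMIs of Pdgfra, 0.61, 0.89 and -0.22 for the mean of per-cell CPM, 0.65, 0.90 and -0.20 after thinning, and 0.67 and 0.81 without the second-profile glia. With at least 4 UMIs of Sox10 and Foxd3 the white value was 0.58. Without the second-profile glia, an alternative added after seeing the data, 5 ratios of named genes past 2-fold changed sign. In white glia over the other white cells these were Gpnmb and Lgals3 (-1.47 and -0.79). Between white and brown glia they were Gpnmb, Lgals3 and Lyz2 (-0.57, -0.87 and -1.69). The last came from 1 against 4 UMIs, with an interval from -7.31 to 1.65. Lyz2 in white glia over the other white cells, at 0.98 in all glia and so within 2-fold, was then lower. The summed myeloid genes went from 0.86 to -5.34 over the other white cells, and from 4.69 to -1.27 (-3.36 to 0.45) between glia. The cells left out were chosen by Ptprc and Lyz2 among others. The changes of Lyz2 and of the myeloid sum follow in part from that choice. No paired analysis was possible because each depot has 1 library. No replicate could be left out. The 62 and 92 glia hold 1797287 and 2446976 UMIs, which limits values below about 1.67 and 1.23 CPM.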
